A study of Mus musculus with 24 samples.

Results

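The 8 genes described here encode the globin chains of mouse hemoglobin that the gene table lists under the symbols Hba-a1, Hba-a2, Hba-x, Hbb-bs, Hbb-bt, Hbb-y, Hbb-bh1 and Hbb-bh2, and they were chosen by symbol from 48709 genes. Their counts were examined in 24 RNA-seq libraries of blood and of cerebral cortex from mouse neonates, 12 per tissue, with 3 libraries for each sex and exposure. The dams of the nPM group breathed re-aerosolized nano-sized particulate matter (nPM) from urban traffic air for 5 h a day on 3 days a week, from gestational day 2 until birth, and the dams of the control group breathed filtered air. The labels and the methods differ in details: the labels give C57BL/6J mice, an age of 3 to 5 days and an nPM concentration of 300 mg/m3, whereas the methods give C57BL/6NJ mice, day 5 and the same concentration figure in μg/m3. The labels name no transgene or other agent, and they do not tie a blood library to the cortex library of the same pup, although both tissues came from the same pups. The pups of each sex and exposure were drawn from different litters, per the methods.

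Hemoglobin is a tetramer of alpha-like and beta-like chains, each holding a heme group, and red cell precursors make both kinds of chain in balance. Mice express embryonic chains in the primitive red cells of the yolk sac (Hba-x, the zeta chain, with Hbb-bh1 and Hbb-y) and switch before birth to the adult chains made in fetal liver and bone marrow (Hba-a1 and Hba-a2, with Hbb-bs and Hbb-bt). The genes of each cluster share a distal enhancer region, and the factors KLF1, GATA1 and BCL11A take part in the switch. Reticulocytes, the young red cells that still hold RNA, are abundant in the blood of newborn mice, and brain tissue that is not perfused keeps red cells in its vessels.

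The beta-like cluster lies on the minus strand of chromosome 7 in mm10, with Hbb-bt at chr7:103812524-103813996, Hbb-bs at chr7:103826534-103828096, Hbb-bh2 at chr7:103839124-103840520, Hbb-bh1 at chr7:103841637-103843164 and Hbb-y at chr7:103851749-103853216. The alpha-like cluster lies on the plus strand of chromosome 11, with Hba-x at chr11:32276400-32278116, Hba-a1 at chr11:32283511-32284465 and Hba-a2 at chr11:32296489-32297298. All 8 are annotated as protein-coding, and none overlapped another gene of the table. The adult genes of each cluster are near-copies. The coding sequences of Hba-a1 and Hba-a2 (429 bases) differed at 1 base and had an identical run of 380 bases, and those of Hbb-bs and Hbb-bt (444 bases) differed at 1 base with an identical run of 416 bases. Over whole transcripts the longest identical runs were 415 bases for the alpha pair and 430 bases for the beta pair, and how far the untranslated bases differ is not given. The 41 bases around each coding difference are shown because they hold the coding letter by which a read can be told to come from 1 copy. They are from Gencode M21 transcripts on GRCm38, with the differing base in capitals, and with positions counted from 1 at the A of the start codon the substitutions are C381T from Hba-a1 to Hba-a2 and C417T from Hbb-bs to Hbb-bt.
Hba-a1: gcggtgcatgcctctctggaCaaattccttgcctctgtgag
Hba-a2: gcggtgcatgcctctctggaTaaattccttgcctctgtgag
Hbb-bs: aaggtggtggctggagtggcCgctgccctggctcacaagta
Hbb-bt: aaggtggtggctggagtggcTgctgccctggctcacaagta
A read within an identical run cannot be assigned to 1 copy from its sequence, and how such reads were counted is not given in the sources used here. The split between the copies is therefore uncertain, whereas the embryonic genes stand apart in sequence. Identity of coding sequence was 74.32% between Hbb-bs and Hbb-y, 74.1% between Hbb-bs and Hbb-bh1 and 62% between Hba-a1 and Hba-x, with no identical run above 22 bases in these pairs.

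The proximal promoters of the clusters carry the short elements for which globin genes are known, a CACCC element bound by KLF1-type factors and a CCAAT box. RefSeq promoters (GRCm38.p6) matched 7 of the 8 genes, and Hbb-bh1 had no entry. The RefSeq starts differ from those of the gene table, so that the windows of Hba-a1, Hba-x and Hbb-bs lie within the gene bounds given above and those of Hbb-bt and Hbb-y overlap them. The 150 bases before the RefSeq start are given for these 5 genes to set the genes that dominated the counts beside those that were nearly silent, with CACCC and CCAAT on either strand in capitals (windows chr7:103827929-103828078 minus, chr7:103813924-103814073 minus, chr7:103853208-103853357 minus, chr11:32283522-32283671 plus and chr11:32276450-32276599 plus).
Hbb-bs: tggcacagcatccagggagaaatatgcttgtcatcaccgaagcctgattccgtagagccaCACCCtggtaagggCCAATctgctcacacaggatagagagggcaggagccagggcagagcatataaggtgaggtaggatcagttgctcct
Hbb-bt: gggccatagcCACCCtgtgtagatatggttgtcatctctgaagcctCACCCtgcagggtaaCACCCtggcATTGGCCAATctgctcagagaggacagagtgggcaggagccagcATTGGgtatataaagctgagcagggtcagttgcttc
Hbb-y: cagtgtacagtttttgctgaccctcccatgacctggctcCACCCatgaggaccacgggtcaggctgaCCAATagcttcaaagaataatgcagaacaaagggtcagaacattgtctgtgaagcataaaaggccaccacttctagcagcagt
Hba-a1: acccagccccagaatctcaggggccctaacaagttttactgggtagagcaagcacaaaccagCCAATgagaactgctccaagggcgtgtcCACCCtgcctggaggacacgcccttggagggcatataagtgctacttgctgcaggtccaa
Hba-x: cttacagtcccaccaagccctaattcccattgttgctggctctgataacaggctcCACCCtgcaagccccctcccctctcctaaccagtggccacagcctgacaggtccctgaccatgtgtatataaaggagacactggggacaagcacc
CACCC was present in 6 of the 7 windows and in 37.4% of all 32851 promoter windows of the same length, and CCAAT in 5 of the 7 and in 24.5% of all. Hbb-bt held 3 CACCC and 3 CCAAT matches, of which 2 CCAAT matches form adjoining inverted copies (ATTGGCCAAT). Hba-x held CACCC and GATAA, which was in 13.3% of all windows, and no CCAAT. The window of Hbb-bh2 held none of these elements. A match is a description of the letters and not a site.

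Blood libraries held 13595647 to 21895536 counts on genes, and cortex libraries 22301409 to 33804371. Blood control replicate 3, a female, stood apart from the other blood libraries. Its globin counts were 50.1% of the library (95% Wilson interval 50.07 to 50.11, counting error only) against 66.2 to 76.8% in the other 11, and its summed level of 10 muscle, skin and bone genes was 4353 CPM (counts scaled to a library total of 1 M) against at most 10.2 CPM in the others. It was left out of the blood tests, and tests with all 12 blood libraries are given where they differ. The cortex libraries carried the neuronal markers Snap25 and Neurod6 at 609 CPM ± 60.4 and 168 CPM ± 13.1 (SD, n = 12). In the 11 blood libraries the means were 0.654 and 0.0757 CPM, so the labelled tissues held their defining markers.

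Adult globin transcripts took most of the blood libraries. Per kilobase of gene and over all 12 libraries, control replicate 3 included, Hbb-bs was the highest in blood at 464208 CPM per kb ± 53075 (SD, n = 12), followed by Hbb-bt at 178497 ± 38017, Hba-a1 at 160320 ± 27268 and Hba-a2 at 145127 ± 49049. The range of Hbb-bs (346967 to 530077) lay above those of the other 3, which overlapped each other, so the order of the 3 is not resolved. The embryonic genes were lower by orders of magnitude, with Hba-x at 6.29 CPM per kb ± 7.96, Hbb-y at 1.85 ± 0.898 and Hbb-bh1 at 0.65 ± 0.346, and the ranges of neighbours in this order overlapped. Hbb-bh2, a globin-like gene of the beta cluster, had 0 counts in all 24 libraries, which allows up to 0.137 to 0.221 CPM in blood and 0.0887 to 0.135 CPM in cortex for a count of 3 per library. In cortex the order per kilobase was Hbb-bs at 330 CPM per kb ± 130, Hba-a1 at 104 ± 42.2, Hba-a2 at 61.5 ± 36.4 and Hbb-bt at 61.3 ± 32.4 (SD, n = 12), with overlapping ranges among the lower 3. Embryonic transcripts were nearly absent there. Hba-x and Hbb-bh1 had 0 counts in all 12 cortex libraries, and Hbb-y had 2 counts in control replicate 4, 1 count in nPM replicate 4 and 0 in the other 10.

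**Figure D1:**
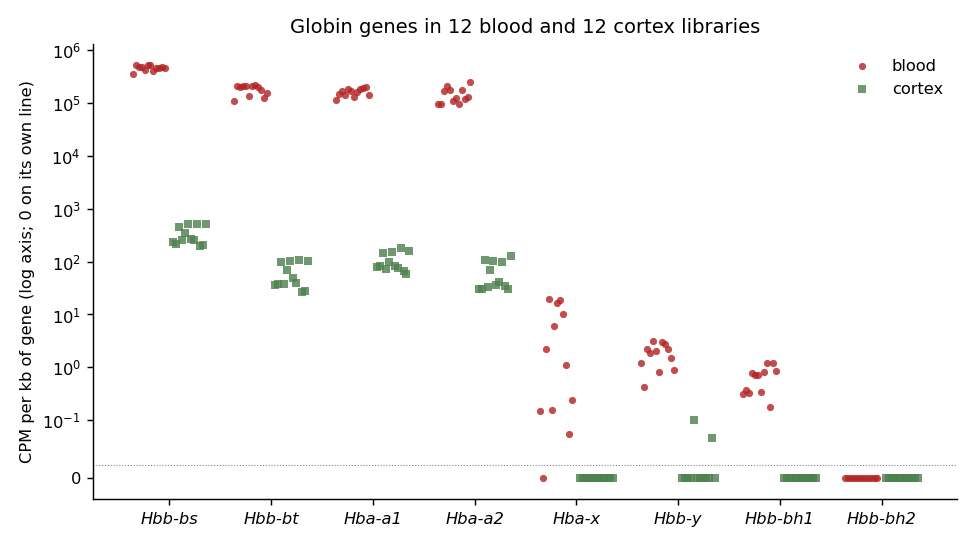
Level of each globin gene in CPM per kilobase (log axis, with 0 on its own line) in every blood (circle) and cortex (square) library. The 4 adult genes stood at 95387 CPM per kb or more in every blood library and at 27 to 515 CPM per kb in cortex, whereas Hbb-bh2 was at 0 in all 24.

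The main comparison of the study asked whether prenatal nPM changed transcripts of the neonate. None of the globin genes tested in blood differed between nPM and control beyond the spread of the libraries. Hbb-bs, the major adult beta gene, ran from 312149 through a median of 352622 to 402041 CPM in the 6 nPM libraries and had 326533, 361008, 373723, 401608 and 407099 CPM in the 5 controls, so the groups overlapped almost entirely. The log2 fold change of Hbb-bs for nPM against control was -0.13 (SE 0.31) with an adjusted p of 0.9996 in edgeR's quasi-likelihood test. Hba-a1, the first adult alpha gene of the cluster, ran from 103082 through 139526 to 165883 CPM in nPM blood and had 112448, 120534, 136492, 136684 and 146538 CPM in controls, with a log2 fold change of -0.03 (SE 0.30). Its nPM libraries included both the lowest and the highest value. Hbb-bt and Hba-a2, the second copies, had log2 fold changes of -0.24 (SE 0.32) and -0.15 (SE 0.37). Of the 6 globin genes with a count in every library of the fit, 0 passed an adjusted p of 0.05 with edgeR, limma voom or DESeq2 and 0 passed an unadjusted p of 0.05, against 0% of 9977 genes adjusted and 3.11% unadjusted in edgeR. Over all genes limma voom called 0 and DESeq2 called 1. The 6 genes had 1 positive and 5 negative log2 fold changes with a median of -0.14, beside 0.00 over all genes tested. Single libraries moved this count. It was 3 of 6 positive without control replicate 1 (median 0.01), control replicate 5 (median 0.0012) or nPM replicate 3 (median -0.03). Without control replicate 4 it was 1 of 7 (median -0.36). With all 12 blood libraries the log2 fold changes of the 4 adult genes turned positive, to between 0.07 and 0.24, and none was called.

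Adult globin transcripts in cortex did not differ with nPM beyond the spread of the libraries either. Hbb-bs ran from 148 through a median of 204 to 395 CPM in the 6 nPM libraries and from 164 through 232 to 388 CPM in the 6 controls. Hba-a1 ran from 48.0 through 63.9 to 144 CPM in nPM and from 57.9 through 73.3 to 122 CPM in control cortex. Both groups of each gene fell into a low and a high set of libraries. The log2 fold changes were -0.03 for Hbb-bs (SE 0.27), -0.08 for Hbb-bt (SE 0.37), -0.03 for Hba-a1 (SE 0.28) and 0.04 for Hba-a2 (SE 0.40), with adjusted p of 0.9822 or more (edgeR). Of these 4 genes, 0 passed an adjusted p of 0.05 with edgeR, limma voom or DESeq2 and 0 an unadjusted p of 0.05, against 0.0144% and 5.67% of 20857 genes in edgeR. Over all genes limma voom called 3 and DESeq2 called 22. Within the 8 libraries of sequencing lane 2, chosen after the values were seen, all 4 estimates were negative and larger in size. They were -0.26 for Hba-a1 (SE 0.06, adjusted p = 0.07529), -0.38 for Hbb-bt (SE 0.12, adjusted p = 0.1825), -0.21 for Hbb-bs (SE 0.09, adjusted p = 0.3688) and -0.16 for Hba-a2 (SE 0.15, adjusted p = 0.7085, edgeR), and none passed. The first 3 were below an unadjusted p of 0.05, as were 2741 of the 21289 genes tested there, of which 101 passed an adjusted one. In lane 3, as values without a test, both nPM libraries lay above both controls for 3 of the 4 genes. Hba-a1 had 131 and 144 against 121 and 122 CPM, and Hbb-bs 389 and 395 against 352 and 388 CPM. Hbb-bt had 72.5 and 74.1 against 70.0 and 72.0 CPM. Hba-a2 was mixed, with 65.1 and 83.6 against 68.1 and 71.2 CPM.

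**Figure D2:**
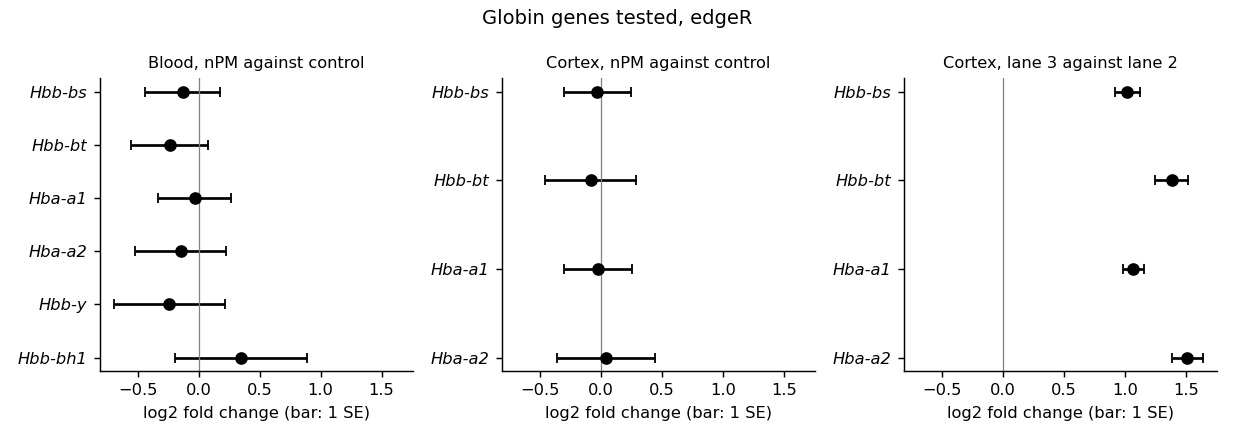
log2 fold change with 1 SE from edgeR for each globin gene tested, for nPM against control in blood and in cortex and for lane 3 against lane 2 in cortex. All 10 exposure estimates lie within 0.35 of 0, and the 4 lane estimates lie between 1.02 and 1.51.

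Among the embryonic genes in blood, Hba-x spread most from library to library. Hba-x, the embryonic zeta chain, had 304, 354 and 208 counts in nPM female replicates 2, 4 and 1, and 42, 0 and 3 counts in control female replicates 1, 4 and 3. In males the order was the other way, with 4, 19 and 1 counts in nPM replicates 3, 5 and 6 and 114, 348 and 2 in control replicates 2, 5 and 6. In CPM these were 15.6, 17.4 and 9.70 for nPM females, 2.08, 0 and 0.142 for control females, 0.229, 1.03 and 0.0518 for nPM males and 5.63, 18.8 and 0.147 for control males. All nPM females lay above all control females and above all nPM males, and control males spanned nearly the whole range. Hba-x had a count of 0 in control replicate 4 and was therefore outside the edgeR fit of genes counted in every library. With that library left out, which leaves control replicate 1 as the only control female, the nPM effect in males minus that in females was -6.07 (SE 1.72, adjusted p = 0.9641, edgeR). In an exact permutation test on log2(CPM + 0.5), added after the values were seen and with exposure permuted within each sex, nPM minus control was 3.66 in females (3 nPM, 2 control) and -2.32 in males (3 against 3). The difference between these effects was -5.98 (exact permutation p = 0.02, 200 arrangements, two-sided). Adjusted over the 3 embryonic genes the p was 0.06, above the threshold. By lane, nPM females had 304 and 354 counts in lane 1 against 0 and 3 in control females, the 3 being replicate 3, and 208 against 42 in lane 3. In males the lane 1 groups overlapped, with 19 and 1 against 348 and 2 counts, and lane 3 held 4 against 114. Without regard to sex, nPM and control did not differ in Hba-x by this scale (difference 0.48, exact permutation p = 0.7294, 6 against 5).

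Hbb-y, the embryonic epsilon-like chain, and Hbb-bh1, the embryonic beta-like chain, had lower means in blood and were steadier. In nPM males, however, Hba-x lay below Hbb-y, with 4, 19 and 1 counts against 10, 26 and 18. Hbb-y had 10, 39 and 38 counts in nPM females, 29 and 6 in the control females tested, 10, 26 and 18 in nPM males and 26, 22 and 27 in control males. The exposure groups overlapped in each sex. Hbb-bh1 had 2 to 16 counts in the 12 blood libraries. For nPM against control the log2 fold changes were -0.24 for Hbb-y (SE 0.45) and 0.35 for Hbb-bh1 (SE 0.54). With single libraries left out the value of Hbb-bh1 ran from 0.10 without control replicate 1 to 0.78 without nPM replicate 2. Their nPM effect in males minus that in females had the same sign as that of Hba-x, -2.31 for Hbb-y (SE 0.78, adjusted p = 0.4519) and -1.79 for Hbb-bh1 (SE 1.03, adjusted p = 0.5194, edgeR). The permutation test used log2(CPM + 0.5) with plain library totals and without RIN (RNA integrity number). It gave a difference of -0.99 for Hbb-y (exact p = 0.22) and -0.49 for Hbb-bh1 (exact p = 0.305). Hbb-y was at 0.274 to 1.99 CPM and Hbb-bh1 at 0.108 to 0.747 CPM, near the 0.5 CPM added. The sizes from the 2 methods are therefore not on 1 scale. At counts of 2 to 39 per library, only large differences could be seen.

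**Figure D3:**
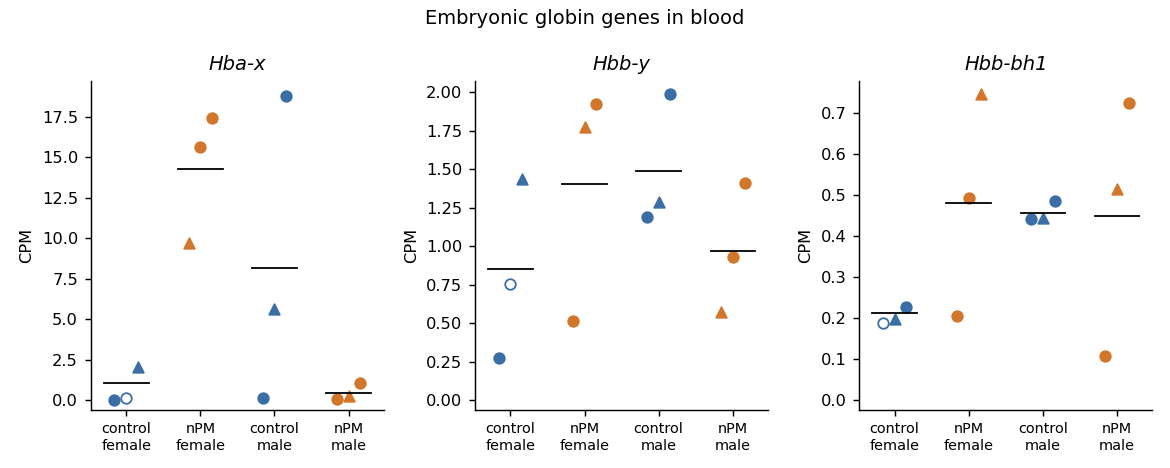
CPM of Hba-x, Hbb-y and Hbb-bh1 in each blood library by sex and exposure, with lane 1 as circles and lane 3 as triangles. The horizontal line is the mean without control replicate 3, which is the open circle. Hba-x ran from 9.70 to 17.4 CPM in nPM females and was 1.03 CPM or less in nPM males.

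With TMM scaling, the nPM effect in males minus that in females was negative for 6 of 6 globin genes tested in blood with a median of -0.66, beside 0.09 over all genes. The count rested on the scaling and on 1 library. With plain library totals, which moved the median of all genes to 0.50, it was negative for 4 of 6 (median -0.23), with 0.18 for Hbb-bs and 0.02 for Hba-a1. With totals without globins, which moved it to 0.54, it was also negative for 4 of 6 (median -0.23). Without control replicate 4 it was negative for 5 of the 7 globin genes then tested (median -0.44), with 0.14 for Hbb-bs and 0.15 for Hba-a2. Of the 6, 0 passed an adjusted p of 0.05 with edgeR, limma voom or DESeq2, and Hbb-y alone passed an unadjusted p of 0.05, against 0% and 10.7% of 9977 genes in edgeR. Over all genes limma voom called 0 and DESeq2 called 4. Other genes of the red cell had mostly the same sign. With TMM scaling the difference was negative for 18 of 18 genes of heme synthesis and its carriers (median -0.96, 11 at an unadjusted p under 0.05) and for 35 of 35 genes of the red cell membrane and reticulocyte (median -0.78, 13 at an unadjusted p under 0.05). It was positive for 17 of 17 lymphocyte genes (median 0.85, 3 at an unadjusted p under 0.05) and negative for 13 of 13 platelet genes (median -0.99, 9 at an unadjusted p under 0.05). With plain totals the difference was negative for 16 of 18 heme synthesis, 32 of 35 red cell and 12 of 13 platelet genes, and without control replicate 4 for 17 of 18, 31 of 35 and 13 of 13. It was positive for 11 of 17 lymphocyte genes without control replicate 4 and for 10 of 17 with all 12 blood libraries. None of these genes passed an adjusted p of 0.05 in these fits, and the part of cell composition in these values was not tested. In bulk blood fewer cells of a type and less RNA per cell cannot be told apart. In cortex the difference was negative for 4 of 4 adult globin genes (median -0.40), with 0 passing an adjusted or an unadjusted p of 0.05 against 0% and 9.68% of 20857 genes in edgeR. Over all genes limma voom called 0 and DESeq2 called 50. Between males and females, 0 of 6 globin genes in blood and 0 of 4 in cortex passed an adjusted p of 0.05 (edgeR, limma voom and DESeq2) or an unadjusted one, against 0% of genes in blood and 0.0336% in cortex adjusted (0.0192% lower in males) and 4.54% and 6.09% unadjusted in edgeR. Over all genes limma voom called 0 for sex in blood and 7 in cortex, and DESeq2 called 1 and 26.

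The adult globin genes in cortex separated by sequencing lane rather than by exposure. The labels place 8 cortex libraries in lane 2 and 4 in lane 3, with 1 lane 3 library for each sex and exposure, so lane and exposure were balanced. Lane 2 held cortex libraries only, lane 1 blood only, and lane 3 held 4 of each tissue. Hbb-bs had 352, 388, 389 and 395 CPM in lane 3 and ran from 148 through a median of 186 to 271 CPM in lane 2. Hbb-bt had 70.0, 72.0, 72.5 and 74.1 CPM in lane 3 and ran from 19.01 through 26.5 to 48.9 CPM in lane 2. For both genes every lane 3 library lay above every lane 2 library. Hba-a1 had 121, 122, 131 and 144 CPM in lane 3 and ran from 48.0 through 63.3 to 78.4 CPM in lane 2. Hba-a2 had 65.1, 68.1, 71.2 and 83.6 CPM in lane 3 and ran from 20.02 through 22.9 to 46.0 CPM in lane 2. The lanes did not overlap for these genes either, and the highest lane 2 library was control replicate 4 in all 4 genes. Summed globins were 654 CPM ± 29.9 (SD, n = 4) in lane 3 and 306 CPM ± 64.3 (SD, n = 8) in lane 2, a ratio of means of 2.14 (exact permutation p = 0.00202, the smallest that 495 arrangements can give).

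In a fit with exposure, sex, RIN and lane, the log2 fold change of lane 3 against lane 2 was 1.51 for Hba-a2 (SE 0.13, adjusted p = 0.0001072), 1.38 for Hbb-bt (SE 0.13, adjusted p = 0.0003344), 1.07 for Hba-a1 (SE 0.09, adjusted p = 8.943e-05) and 1.02 for Hbb-bs (SE 0.10, adjusted p = 0.0004735, edgeR). This comparison was chosen after the values were seen. Of 20857 genes, 6 were called (0.0288%, beside 2.55% at an unadjusted p under 0.05), and all were higher in lane 3. They were the 4 adult globin genes, Alas2, the first enzyme of heme synthesis in red cells (1.01, SE 0.13, adjusted p = 0.00533), and Fam46c, a poly(A) polymerase gene abundant in reticulocytes (1.03, SE 0.12, adjusted p = 0.001332, edgeR). Slc4a1, the anion exchanger of the red cell membrane, had 0.96 (SE 0.18, adjusted p = 0.2609, edgeR) and did not pass. Of 27 genes of the red cell membrane and reticulocyte list, 21 had a positive value, 1 passed and the median was 0.07, beside 0.00 over all genes. At an unadjusted p under 0.05, 7 of the 27 were higher in lane 3 and 0 lower. Of 18 heme synthesis genes 9 had a positive value, and Alas2 alone passed. Among other cell types, 2 of 6 neutrophil, 3 of 8 lymphocyte, 9 of 15 macrophage and microglia (median 0.07), 9 of 10 brain endothelium and pericyte (median 0.08) and 8 of 9 astrocyte and oligodendrocyte genes (median 0.04) had a positive value and none passed. At an unadjusted p under 0.05 the neutrophil, lymphocyte, macrophage, endothelium and astrocyte lists held 1 lymphocyte gene, lower in lane 3, and no other gene. Differences between these lists were not tested.

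Neuronal transcripts in blood were read by lane as well. The 15 cortical neuron genes summed to 11.2 to 14.3 CPM in the 4 lane 3 blood libraries, with 14 or 15 of the 15 detected and Tubb3 or Bcl11b the most abundant. In the 8 lane 1 blood libraries they summed to 2.21 to 6.71 CPM with 4 to 9 detected, apart from control replicate 3 at 56.4 CPM and nPM replicate 5 at 38.3 CPM. Snap25 had 8 to 25 counts in lane 3 blood and 0 in lane 1 blood except for 81 in nPM replicate 5 and 11 in control replicate 3. The lists named for other brain cells overlapped between the lanes in blood, but they do not read brain cells alone there. The macrophage and microglia list was led by Pf4, which is also on the platelet list. Outside control replicate 3 the brain endothelium and pericyte list was mostly Pecam1, with 11.7 of 12.5 CPM in control replicate 4. The astrocyte and oligodendrocyte list had a median of 17.4 CPM in lane 3 and 12.4 CPM in lane 1, the brain endothelium and pericyte list 12.05 and 11.8 CPM, and the macrophage and microglia list 70.9 and 76.4 CPM. In the fit for lane without control replicate 3, 3 of the 15 neuron genes had a count in every library and could be tested, with a median log2 difference of 0.01 (all genes -0.02), and none passed an unadjusted p of 0.05 (edgeR). The fit cannot decide on the neuron list, because its filter removed genes with 0 counts in lane 1, such as Snap25. It also kept nPM replicate 5 in lane 1. Whether reads passed between libraries of a shared lane was not tested, nor was the amount of blood left in each cortex. In blood itself, where 4 libraries were in lane 3 and 7 in lane 1, 0 of 6 globin genes passed an adjusted or unadjusted p of 0.05 for lane, against 0% and 3.8% of 9977 genes (edgeR). With lane in the fit, the log2 fold changes for nPM in cortex were between -0.17 and -0.03 and none was called. In the same fit the nPM effect in males minus that in females was -0.56 for Hbb-bs (SE 0.15, adjusted p = 0.402) and -0.66 for Hbb-bt (SE 0.22, adjusted p = 0.4622, edgeR).

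**Figure D4:**
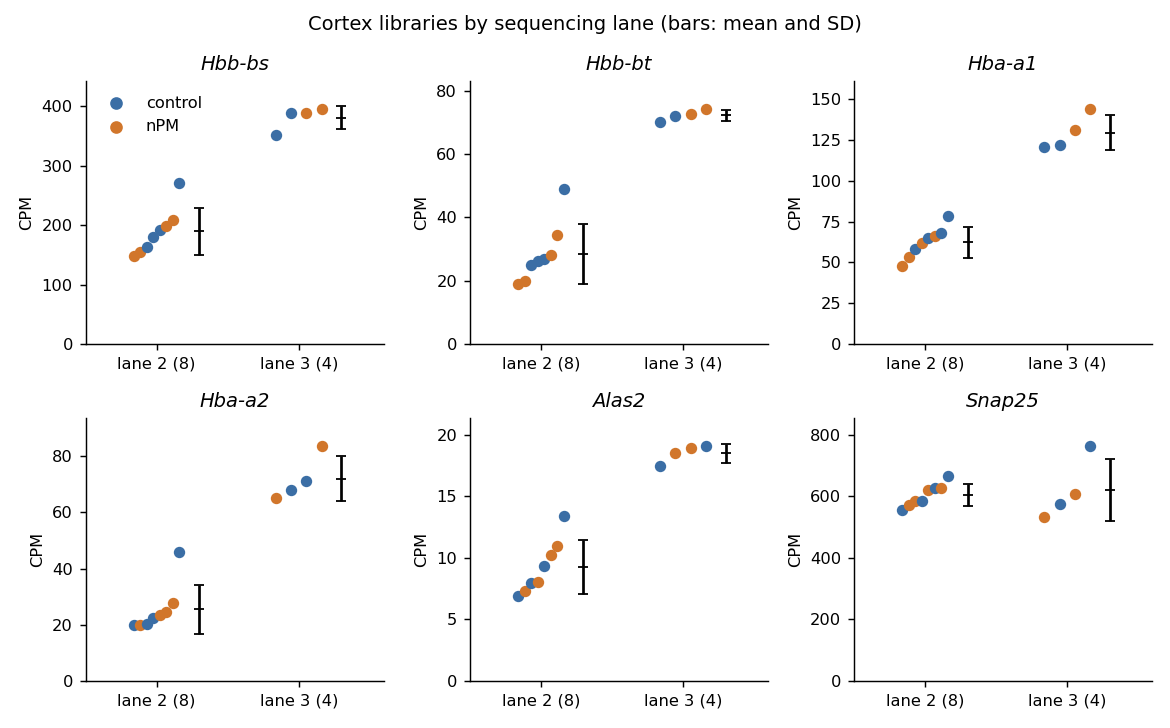
CPM of the 4 adult globin genes, Alas2 and the neuronal gene Snap25 in each cortex library, by sequencing lane and exposure, with mean and SD. The 4 lane 3 libraries lay above all 8 lane 2 libraries for the globin genes and Alas2 but not for Snap25. For the globin genes, blue and orange points were mixed in lane 2. In lane 3 both nPM libraries lay above both controls for Hba-a1, Hbb-bs and Hbb-bt but not for Hba-a2.

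The makeup of the globin counts was compared next, since shares within 1 library need no scaling between libraries. The share of Hbb-bt in the adult beta counts was 26.2% ± 4.39 in blood (SD, n = 11) and 13.9% ± 1.91 in cortex (SD, n = 12), and the ranges of 18.7 to 33.1% and 11.3 to 16.6% did not overlap (permutation p = 1e-05, the smallest that 100000 resamples can give, BH-adjusted 2.5e-05 over 5 measures). The share of Hba-a2 in the adult alpha counts was 42.1% ± 8.94 in blood and 31.1% ± 5.31 in cortex (permutation p = 0.00095, adjusted 0.00158), with ranges that overlapped. These tests treat the libraries as independent, whereas blood and cortex came from the same pups and could not be paired here. The alpha-like share of all globin counts did not pass, at 32.02% ± 4.23 in blood and 29.5% ± 1.85 in cortex (permutation p = 0.0702, adjusted 0.0878). Within cortex the shares also moved with lane. Hbb-bt was 15.9% ± 0.443 of adult beta counts in lane 3 (SD, n = 4) and 12.8% ± 1.41 in lane 2 (SD, n = 8, exact permutation p = 0.00404, adjusted 0.00808 over 4 measures), and Hba-a2 was 35.8% ± 3.34 and 28.7% ± 4.50 of adult alpha counts (exact permutation p = 0.0242, adjusted 0.0323). Both lane 3 means lay between those of lane 2 cortex and of lane 3 blood, which were 24.7% for Hbb-bt and 45.9% for Hba-a2. In lane 2 cortex alone the difference of blood from cortex was 13.4 percentage points for each of the 2 shares (permutation p = 3e-05 and 0.00079). Because the copies share almost all of their coding sequence, these shares hold for the counting as deposited and not for transcript molecules.

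No measure of this makeup differed with exposure beyond the spread of the libraries. In blood the globin share of all counts was 71.9% ± 3.26 in nPM (SD, n = 6) and 73.9% ± 2.06 in control libraries (SD, n = 5, exact permutation p = 0.2706). The Hbb-bt share was 26.1% ± 4.82 and 26.4% ± 4.37 (exact permutation p = 0.9004). The Hba-a2 share was 41.5% ± 10.1 and 42.7% ± 8.44 (exact permutation p = 0.8528). Embryonic counts per 1 M globin counts were 12.7 ± 11.9 and 9.22 ± 10.3 (exact permutation p = 0.6017), a difference of 3.48 that became 0.0291 without nPM replicate 4 and 7.83 without control replicate 5, and their spread came from Hba-x, which alone ran from 0.0729 to 26.3 in nPM and from 0 to 24.4 in control blood. In cortex the Hbb-bt share was 13.4% ± 2.05 in nPM and 14.3% ± 1.85 in control libraries (SD, n = 6 each, exact permutation p = 0.4459). Over the 9 measures of both tissues the smallest adjusted p was 0.9004.

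**Figure D5:**
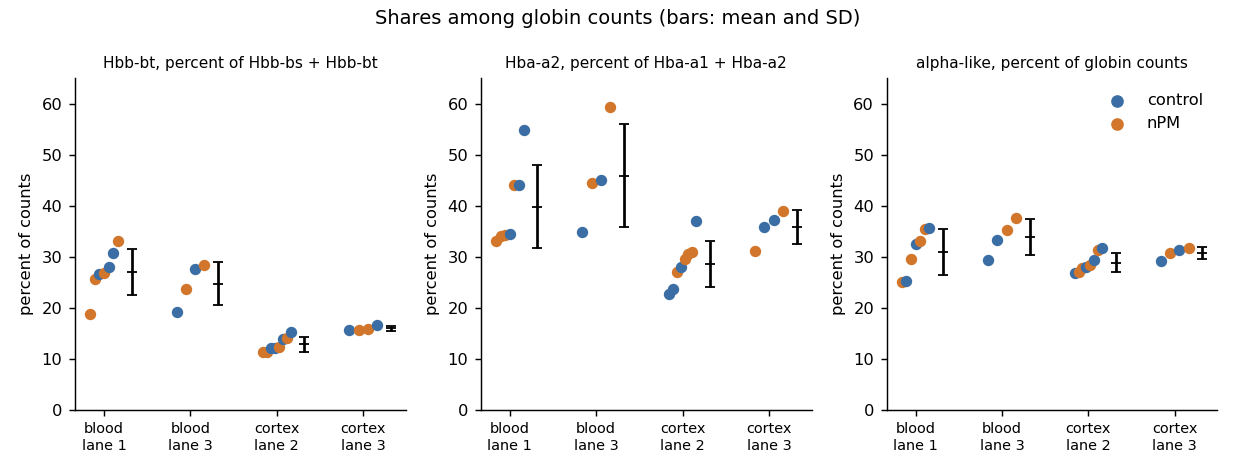
Share of Hbb-bt in the adult beta counts, of Hba-a2 in the adult alpha counts and of alpha-like genes in all globin counts, for each library by tissue, lane and exposure, with mean and SD and without blood control replicate 3. Hbb-bt was above 18% in every blood library and under 17% in every cortex library.

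Red cell genes were next set beside the globins in each tissue. As whole lists they did not keep the proportion to globin across tissues. The 35 genes of the red cell membrane and reticulocyte list summed to a median of 2178 CPM in lane 2 and 2185 CPM in lane 3 cortex, led in most libraries by Add2, which neurons also express, and to 55416 CPM in lane 1 (8 libraries, control replicate 3 included) and 53907 CPM in lane 3 blood, led by Fam46c. The heme synthesis list, whose enzymes other cells also use, summed to a median of 430 and 440 CPM in cortex and 30632 and 28978 CPM in blood. Hence cortex, with at most 678 CPM of globin, held far more of both lists per globin count than blood. Single genes differed in this. Alas2 and Slc4a1 are defining red cell markers, and Fam46c was chosen after its values were seen. Alas2 had 31.6 ± 5.23 counts per 1000 globin counts in lane 1 blood (SD, n = 7), 27.3 ± 2.85 in lane 3 blood (n = 4), 30.3 ± 3.31 in lane 2 cortex (n = 8) and 28.3 ± 0.851 in lane 3 cortex (n = 4). Fam46c had 16.4 ± 3.10, 14.95 ± 0.153, 16.9 ± 1.39 and 16.03 ± 1.66 in the same order. Slc4a1 had 3.84 ± 1.40, 4.04 ± 0.357, 4.49 ± 0.859 and 4.10 ± 0.977. The ranges overlapped between tissues for each of these 3 genes. Hbq1a and Hbq1b, theta-like globin genes of the alpha cluster that were singled out after their values were seen, had other proportions. Hbq1a had 0.042 ± 0.00698 counts per 1000 globin counts in lane 1 blood and 3.13 ± 1.25 in lane 2 cortex, and Hbq1b 0.0685 ± 0.0273 and 3.36 ± 1.79. In lane 3, Hbq1a had 0.044 ± 0.00505 in blood and 1.37 ± 0.227 in cortex, and Hbq1b 0.0595 ± 0.0149 and 1.27 ± 0.263. In CPM the ratio of the blood mean to the cortex mean was 1438 for Hbb-bs, 1580 for Hba-a1, 2433 for Hba-a2, 3015 for Hbb-bt and 1763 for Alas2, but 34.5 for Hbq1a and 50.6 for Hbq1b. In lane 3 cortex the log2 fold change of Hbq1b against lane 2 was -0.18 (SE 0.27, adjusted p = 1, edgeR), unlike the adult genes. These ratios across tissues are a description, since no scaling serves both tissues.

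No gene of the wider globin program passed an adjusted p of 0.05 for nPM in either tissue. Of 25 globin regulators tested in blood, 12 had a positive and 13 a negative log2 fold change with a median of -0.02, and none passed an adjusted or unadjusted p of 0.05. The 3 with the smallest p were Myb, a factor of early progenitors (-0.49, SE 0.26), Hdac2, a histone deacetylase (0.68, SE 0.38), and Gata1, the main factor of red cell development (0.30, SE 0.23). Of 18 genes of heme synthesis and its carriers, 14 were positive and 4 negative (median 0.09), led by Cpox, the coproporphyrinogen oxidase (0.53, SE 0.36). Of 35 genes of the red cell membrane and reticulocyte, 21 were positive and 14 negative (median 0.03). These counts rested on single libraries. Without control replicate 4, 5 of 18 heme synthesis genes (median -0.10) and 6 of 35 red cell genes (median -0.13) were positive, and with all 12 blood libraries 18 of 18 (median 0.38) and 34 of 35 (median 0.33). Without nPM replicate 4 the counts were 11 of 18 and 14 of 35. Among 12 genes of erythroid precursors and proliferation, 2 had an unadjusted p under 0.05 (3.11% over all genes), Gfi1b, a repressor of the erythroid and megakaryocyte lineages (-0.84, SE 0.30), and the cell cycle kinase Cdk1 (-0.53, SE 0.25). Among 9 genes of hemoglobin scavenging and heme breakdown, Lrp1, the receptor of the heme-hemopexin complex, had 0.64 (SE 0.19). Of 7 neighbours of the alpha cluster, Mpg, a DNA glycosylase gene, had -0.53 (SE 0.25). The adjusted p of all these genes was 0.9996 (edgeR).

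The other cell types of blood were read from marker lists in the same fit. Of 17 lymphocyte genes 1 had a positive and 16 a negative log2 fold change for nPM (median -0.28), led by Nkg7, a granule protein of cytotoxic cells (-1.14, SE 0.44). Of 13 platelet genes 11 were positive and 2 negative (median 0.20), led by Ppbp, a platelet chemokine (0.68, SE 0.33), and of 16 neutrophil genes 9 were positive (median 0.05). Without control replicate 4 the platelet median was -0.0086 (6 of 13 positive) and the lymphocyte median -0.11 (4 of 17 positive). Without nPM replicate 4 these medians were 0.05 and -0.13, and with all 12 blood libraries 0.53 and -0.06. None passed an adjusted p of 0.05 (edgeR). In cortex, 13 of 25 regulators, 4 of 18 heme synthesis genes and 9 of 27 genes of the red cell membrane and reticulocyte had a positive value for nPM, with medians of 0.01, -0.03 and -0.03. Alad, the second enzyme of heme synthesis, had 0.16 (SE 0.06, adjusted p = 0.8621), and Blvrb, biliverdin reductase B, had -0.23 (SE 0.11, adjusted p = 0.8621). Of 11 genes of erythroid precursors and proliferation, which dividing brain cells also express, 9 were positive (median 0.16) and 4 had an unadjusted p under 0.05 (5.67% over all genes), among them Rrm2 (0.25, SE 0.08), Aurka (0.38, SE 0.13) and Cdk1 (0.35, SE 0.14). No gene of these lists passed an adjusted p of 0.05 in cortex.

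The genes whose level followed the globins most closely from library to library were named as a description. They were ranked by Spearman's correlation of scaled log2 CPM with the summed globins, among genes of at least 10 mean CPM, and all points share library depth and composition. In cortex the closest of 10264 genes to the summed adult globins over 12 libraries was Alas2 (0.902), then Znhit1 (0.832), Fbxo10 (0.825), Mfsd14b (0.811) and Slc35f5 (0.811). Slc4a1, below that level at 1.81 CPM, had 0.846, whereas Hbq1a had -0.413 and Hbq1b -0.224. The lanes did not overlap in summed globins in cortex, so these correlations include the lane difference. None within a lane is given. In blood the closest of 1273 genes over 11 libraries were Slc43a3 (0.973), 2500002B13Rik (0.936), Tbcd (0.927), Ep400 (0.927) and Smg6 (0.918), with Alas2 at 0.70. The summed globins and each gene were divided by the same TMM factor of their library. In blood these factors ran from 0.763 to 1.276, while the globin share of counts ran only from 66.2 to 76.8%. The rankings in blood therefore include the shared factor, and its part was not tested. The closest to the summed embryonic globins in blood, a sum that is mostly Hba-x, were Vmp1 (0.927), Mcm3 (0.882), Isca1 (0.864), Syt14 (0.864) and Ubap1 (0.855).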

How the data were processed

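Per the labels and methods, RNA from 24 blood and cortex samples was depleted of ribosomal RNA (RiboZero Gold), sequenced on an Illumina sequencer, aligned to mm10 with HISAT2 and counted on Gencode M11 genes with featureCounts 1.5.0-p3. The deposited counts are whole numbers without normalization. The authors' gene table also gave symbols, coordinates and lengths. Strandedness and the treatment of reads that map to several genes are not given in the sources used here.

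Genes counted at least once (1 count) in each library entering a fit were tested with edgeR 4.0.16 (quasi-likelihood, TMM, two-sided, R 4.3.3) for exposure with sex and RIN (model 1) and for exposure by sex (model 2). Adjusted p-values are Benjamini-Hochberg over all genes tested. limma 3.58.1 voom and DESeq2 1.42.0 were alternatives, with RLE factors, plain totals, totals without globins, 3 count filters, no RIN, lane, all blood libraries and each library left out. Blood control replicate 3 was left out because the study left out 1 blood library for its count distribution, and the average expression in its supplementary blood list pointed to replicate 3. Shares were tested by exact permutation over libraries or 100000 resamples. The edgeR and permutation steps were tested on simulated data. Per the methods, the pups of a sex and exposure came from different litters. Breeding trios were assigned to either nPM or filtered air, so control and nPM pups came from separate litters. Whether male and female pups shared litters is not given.

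The 8 genes and all lists were chosen with earlier results of these data known. Named list genes were up to 3 with the smallest p for nPM per list and tissue, and the defining red cell markers. The result of 1 marker is not reported here. Of 246 list symbols, 244 were found. The lane tests, the test of embryonic genes by sex the lane 2 comparisons and the list counts under each alternative were added after seeing the data.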

Additional observations from a re-analysis of the deposited data

Results flagged for a closer look

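In blood, the nPM effect on Hba-x in males minus that in females was -5.98 on the log2(CPM + 0.5) scale (exact permutation within sex, p = 0.02, adjusted over 3 embryonic genes 0.06), which flagged it as a difference between the sexes. With all 12 blood libraries the difference was -6.25 (exact permutation p = 0.015). Within control blood the highest Hba-x level, 18.8 CPM in control replicate 5, lay far from the other 5 libraries, as did its 26.6 embryonic counts per 1 M globin counts. In control blood the globin share of replicate 3, 50.1% of counts, lay far below the rest. In nPM cortex the Hba-a2 share of replicate 6, 39.0% of adult alpha counts, lay far above the rest. That library was in lane 3. Of 40 groups of 6 libraries examined, 4 held such a library, where chance flags about 1 in 20.

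Blood control replicate 3, which entered only the tests with all 12 blood libraries and the levels given over 12 or over 8 lane 1 blood libraries, held transcripts of other tissues. Its muscle, skin and bone genes summed to 4353 CPM, led by Krt10 at 3161 CPM, against at most 9.77 CPM in the other control blood libraries. Its choroid plexus and meninges list summed to 2380 CPM, led by the collagen gene Col1a2 at 1015 CPM, against at most 43.2 CPM. Its cortical neuron list summed to 56.4 CPM, of which Bcl11b, also expressed in T cells and skin, made up 38.3 CPM, against at most 14.3 CPM. Their part in its lower globin share was not tested.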

How the results depend on the processing

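No paired analysis was possible because the labels number the libraries without replicate numbers that groups share. The replicate numbers used here only count the libraries within each tissue and exposure, and they link no pups between groups. No globin gene was called for nPM in blood or cortex under any of the alternatives run (lowest adjusted p 0.9736 for Hbb-bh1 in blood and 0.07529 for Hba-a1 in cortex of lane 2 only), and the 4 adult genes were called for lane in cortex in 5 other fits of that comparison and with each library left out. Under a filter of at least 1 count in any library, 1 globin gene was called for sex in blood (Hba-x), 1 for exposure by sex in blood (Hba-x, log2 -7.90, adjusted p = 2.894e-39), 1 for sex in cortex (Hba-a2) and 2 for exposure by sex in cortex (Hbb-bs and Hbb-bt). edgeR's filterByExpr gave Hba-x an adjusted p of 0.5039 for the same term. The filter of at least 1 count in any library called 330 and 81 of 22409 genes in blood and 165 and 379 of 32461 in cortex for these comparisons. The cause was not tested. With all 12 blood libraries the nPM differences turned to 1.95 percentage points for the globin share and 0.286 for the Hbb-bt share, and the log2 fold changes to 0.24 for Hba-a1, 0.13 for Hba-a2, 0.14 for Hbb-bs, 0.0664 for Hbb-bt and 0.13 for Hbb-y. That of Hba-a1 was 0.0426 with plain totals. In cortex that of Hba-a2 was -0.11 with limma voom, -0.0365 without RIN, -0.0288 with lane and -0.16 in lane 2 only.

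As values without a test, the nPM difference in embryonic counts per 1 M globin counts in blood was 19.99 in females and -10.9 in males, for Hba-x alone 18.8 and -10.2, and for Hbb-y plus Hbb-bh1 1.22 in females. In lane 3 blood the globin share differed by 1.72 and the Hba-a2 share by 11.9 percentage points. The alpha-like share in cortex differed by -2.02 in females and 2.33 in males. With each library left out in turn, the nPM difference in blood ran from -0.00138 to 3.02 for the alpha-like share, -4.71 to 1.91 for the Hba-a2 share, -2.19 to 1.11 for the Hbb-bt share and -0.208 to 0.447 for Hbb-y plus Hbb-bh1, and in cortex from -0.00667 to 0.00301 for the globin share, -0.36 to 0.653 for the alpha-like share and -0.941 to 1.94 for the Hba-a2 share. For the globin share in blood it ran from -2.76 to -0.888 percentage points. The log2 fold changes for nPM in blood ran from -0.15 to 0.0813 for Hba-a1, -0.36 to 0.13 for Hba-a2 and -0.67 to 0.0402 for Hbb-y, and in cortex from -0.33 to 0.17 for Hba-a1, -0.37 to 0.33 for Hba-a2, -0.32 to 0.17 for Hbb-bs and -0.51 to 0.19 for Hbb-bt. In blood those of Hbb-bs ran from -0.23 to -0.0226 and those of Hbb-bt from -0.39 to -0.0777. For exposure by sex in cortex they ran from -1.17 to 0.28 for Hbb-bs and -1.52 to 0.56 for Hbb-bt. None of these was called. Where a control female of blood was left out, 1 remained and is assumed to vary like the others. Counts under 40 limited Hbb-y and Hbb-bh1.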

Other observations

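Outside the globin program, 2 list genes stood apart for nPM in cortex by their unadjusted p without passing an adjusted one. Gad1, which makes the inhibitory transmitter GABA, differed by 0.26 on the log2 scale (SE 0.06, edgeR adjusted p = 0.4926), and Dcn, a proteoglycan of meningeal fibroblasts, had 0.62 (SE 0.14, adjusted p = 0.4926). Of the 15 cortical neuron genes in cortex, Gad1 among them, 7 had a positive and 8 a negative value for nPM (median -0.03). At an unadjusted p under 0.05, 1 of these was higher and 1 lower. Of 9 genes of choroid plexus and meninges in cortex, Dcn among them, 7 had a positive value for nPM (median 0.30) and none passed an adjusted p of 0.05 (edgeR). Cortex control replicate 3 summed to 127.9 CPM over this list, led by Col1a2, against 359.7 to 649.3 CPM in the other 11 cortex libraries, led by Ttr, and without it the count was again 7 of 9 with a median of 0.17. In blood, the nPM effect in males minus that in females was positive for 13 of 16 neutrophil genes (median 0.72, 2 at an unadjusted p under 0.05, beside 10.7% over all genes) and none passed an adjusted p of 0.05. With all 12 blood libraries it was positive for 6 of 14 (median -0.10).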
